A study of Arabidopsis thaliana with 16 samples.

Results

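The amount of ribosome footprints was set against the amount of RNA, gene by gene, in wild-type Arabidopsis thaliana seedlings kept at 22 °C. The libraries were the 4 of the series' 16 whose labels give the genotype Col-0, the temperature 22 °C and either assay: 2 Ribo-seq libraries, which count pieces of RNA covered by ribosomes, and 2 RNA-seq libraries of RNA selected by its poly(A) tail. Whole seedlings 10 days old were used throughout. The comparison group was the fust1 mutant at 22 °C, with 2 Ribo-seq and 2 RNA-seq libraries, and the remaining 8 libraries came from both genotypes at 37 °C. The labels give neither the fust1 allele nor its locus, and the name table used here holds no gene of that name, so the mutation itself was not checked. One gene outside the lists, SQN (cyclophilin 40), named here after its values were seen, had 0 and 1 footprint counts and 0 and 0 RNA counts in fust1, against 176 and 138 footprint counts and 80 and 100 RNA counts in Col-0. The series' design calls the libraries biological replicates, but no label ties a library to its own culture, so p-values measure the spread between these libraries.

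A ribosome that translates an mRNA shields a short stretch of it from nuclease, and sequencing those stretches counts ribosomes per gene. Set against the RNA of the same gene, the footprint level is the usual measure of how heavily an mRNA is engaged by ribosomes, often called translation efficiency. Upstream open reading frames (uORFs) in the 5' leader, binding of a protein to its own mRNA and the storage of mRNA away from ribosomes are known ways in which cells hold this ratio down. Plastid mRNAs are translated by the plastid's own ribosomes and as a rule lack the long poly(A) tail of nuclear mRNAs.

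The Col-0 libraries at 22 °C held 13732127 and 10831678 footprint counts and 9762754 and 12737375 RNA counts. Of 27628 genes in the table, 19939 passed the filter on low counts, of which 19852 were nuclear, 73 plastid and 14 mitochondrial. Levels are given as CPM, counts per 1000000 of a library's total after TMM scaling, and the ratio of a gene as log2 of footprints over RNA, so that a positive value means more footprints than RNA on that scale. No gene lengths were used. The ratio compares levels within a gene. Correlations across genes, groups by RNA level and CPM cut-offs compare levels between genes that were not corrected for length. Root genes were present: 8 of 8 root markers passed the filter. Of 5 flower and seed markers, only the floral gene AG did, at 1.00 and 1.13 CPM of footprints against 0 and 0.212 CPM of RNA.

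Footprints followed RNA, with wide departures for single genes. Across 17150 nuclear genes with at least 1 CPM in both assays, footprint and RNA levels had a Spearman correlation of 0.803, and the genes, which share their libraries, are no replicates. Gene length bears on the counts of both assays, and its part in this correlation was not tested. Within an assay the replicates correlated at 0.987 for footprints and 0.981 for RNA. The SD of the log2 ratio over these genes was 1.21, while the median distance between replicates was 0.182 for footprints and 0.203 for RNA on the same scale. Over all tested genes the 25th and 75th percentiles of the ratio were -1.0 and 0.78, and the 5th and 95th were -3.18 and 2.16.

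By the quasi-likelihood test of edgeR, at an adjusted p under 0.05 (Benjamini-Hochberg), 5602 genes (28.1%) were higher in footprints than in RNA and 6459 (32.4%) were lower, or 60.5% in either direction. With a change of at least 2-fold required as well, 3521 genes (17.7%) were higher and 4571 (22.9%) lower, or 40.6% in either direction. The zero point of the ratio depends on the scaling. With plain library totals the median of all genes moved by -0.29 on the log2 scale, and 4088 genes were then called higher and 7991 lower. The median ratio of all tested genes was -0.08, and each gene list below is read beside it and beside the percentages just given.

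**Figure D1:**
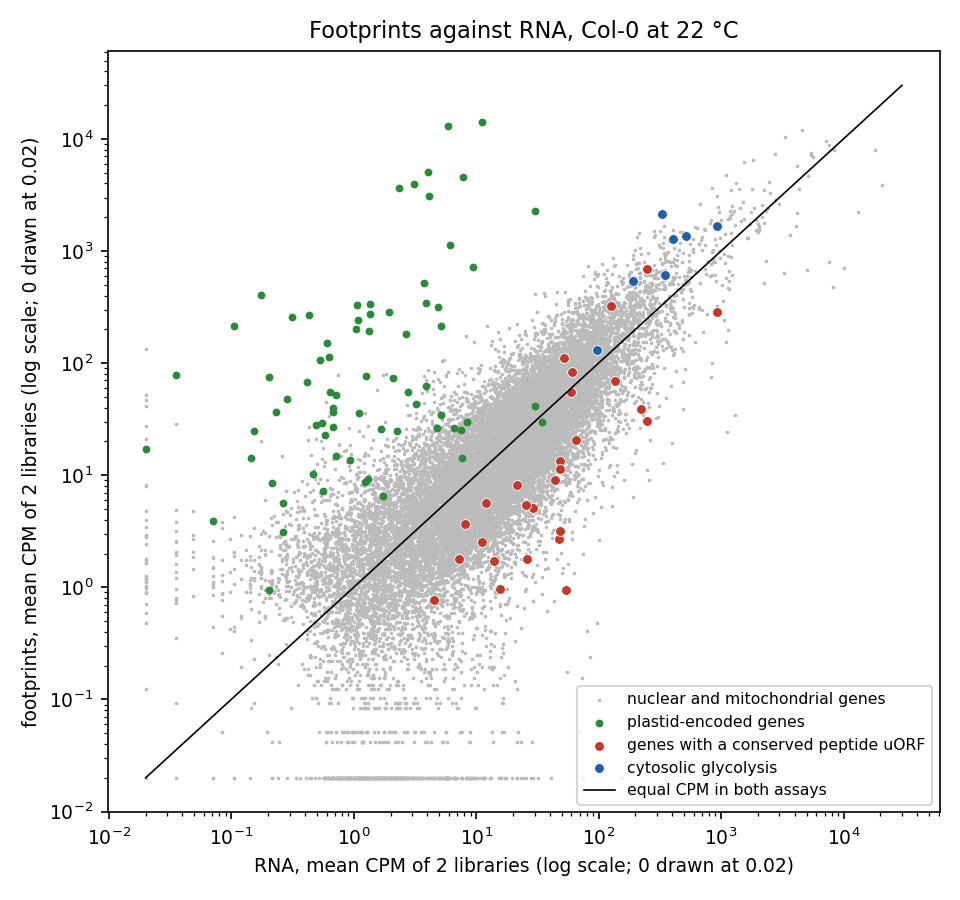
Footprint level against RNA level of the 19939 tested genes in Col-0 at 22 °C, each the mean CPM of 2 libraries on log axes, with genes at 0 drawn at 0.02. Plastid-encoded genes (green) lie far above the line of equal CPM, genes with a conserved peptide uORF (red) lie mostly below it (22 of 27 called lower), and the 7 cytosolic glycolysis genes (blue) lie above it.

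Of the 22 lists gathered by role, the lowest median belonged to mRNAs whose 5' leader encodes a conserved peptide. In such mRNAs the ribosome meets the uORF first, and a metabolite such as sucrose, a polyamine or ascorbate can stall it there. Of 27 genes on the list, 22 were called lower, 4 higher, and the median ratio was -2.09. The ratio was at least 2-fold lower for 21 of them. In fust1 the counts were 23 lower and 4 higher, where the test called 33.0% of all genes lower and 27.8% higher (60.7% either way, and 40.2% with a 2-fold change required).

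Enzymes of ascorbate and polyamine synthesis were among them. VTC5, a GDP-L-galactose phosphorylase of ascorbate synthesis, had 3.0 and 2.37 CPM of footprints and 48.7 and 46.2 CPM of RNA, a log2 ratio of -4.12 ± 0.20 (SE; adjusted p = 1.3e-09). Its partner VTC2, for the same step, had 34.6 and 42.7 CPM of footprints and 237 and 210 CPM of RNA (-2.53 ± 0.18, adjusted p = 4.35e-08). For both, every footprint value lay several-fold under every RNA value. SAMDC, the S-adenosylmethionine decarboxylase that feeds spermidine synthesis, had 252 and 322 CPM of footprints and 983 and 855 CPM of RNA (-1.68 ± 0.17, adjusted p = 1.16e-06). SAC51, a bHLH factor of the thermospermine response, had 2.59 and 3.71 CPM of footprints and 49.3 and 47.9 CPM of RNA (-3.96 ± 0.22, adjusted p = 5.3e-09). The assays did not overlap for either gene, and SAC51 stood further apart than SAMDC. The lowest ratio on the list was that of AT5G09460, with 1.17 and 0.722 CPM of footprints and 59.7 and 49.6 CPM of RNA (-5.81 ± 0.35, adjusted p = 7.13e-08).

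The sucrose-responsive bZIP factors of the list were all lower in footprints, with ratios between -2.53 for bZIP44 and -1.39 for bZIP1. BZIP53 stood at -2.26 ± 0.18, GBF6 (bZIP11) at -2.15 ± 0.38 and bZIP2 at -1.67 ± 0.16. HSF4 (HSFB1), a heat shock factor of class B with uORFs in its leader, had 7.35 and 3.61 CPM of footprints and 21.9 and 28.8 CPM of RNA (-2.19 ± 0.38, adjusted p = 0.000799). Its footprint libraries were apart from each other, but both lay under both RNA values. HSP101, the heat-induced disaggregase, had 30.6 and 13 CPM of footprints and 9.65 and 8.19 CPM of RNA at this temperature (1.3 ± 0.35, adjusted p = 0.0104), and lost the call without Ribo-seq replicate 1 (adjusted p = 0.0775) or RNA-seq replicate 2 of Col-0 (adjusted p = 0.0866). The kinase gene SIP3 was at -3.03 ± 0.17 and the NAC factor gene NAC082 at -1.87 ± 0.20.

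Of the 4 genes called higher, PMEAMT (1.34 ± 0.14) and XPL1 (0.46 ± 0.15, adjusted p = 0.0168) encode phosphoethanolamine N-methyltransferases, which make the head group of phosphatidylcholine. AT1G73600 had the highest ratio of the list, at 1.45 ± 0.19. PMEAMT had 330 and 312 CPM of footprints and 127 and 127 CPM of RNA, with no overlap. The homeobox gene HB-1 was at 1.11 ± 0.22. The polyamine oxidase gene PAO2 was not called (-0.12 ± 0.15, adjusted p = 0.505). With plain library totals the list had 23 genes lower and 3 higher.

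Genes known to be held back by other kinds of uORF gave a mixed picture, with 3 of 6 called lower, 0 higher and a median of -0.43. MHX, a vacuolar magnesium and zinc exchanger, had 7.18 and 5.98 CPM of footprints and 36.0 and 34.0 CPM of RNA (-2.40 ± 0.20, adjusted p = 1.45e-07). The borate exporter gene BOR1 was at -0.98 ± 0.16 and the auxin response factor gene ETT at -0.89 ± 0.16. The boron channel gene NIP5;1 (0.03 ± 0.42), the auxin response factor gene MP (0.15 ± 0.20) and the phosphate exporter gene PHO1 (0.23 ± 0.50) were not called.

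**Figure D2:**
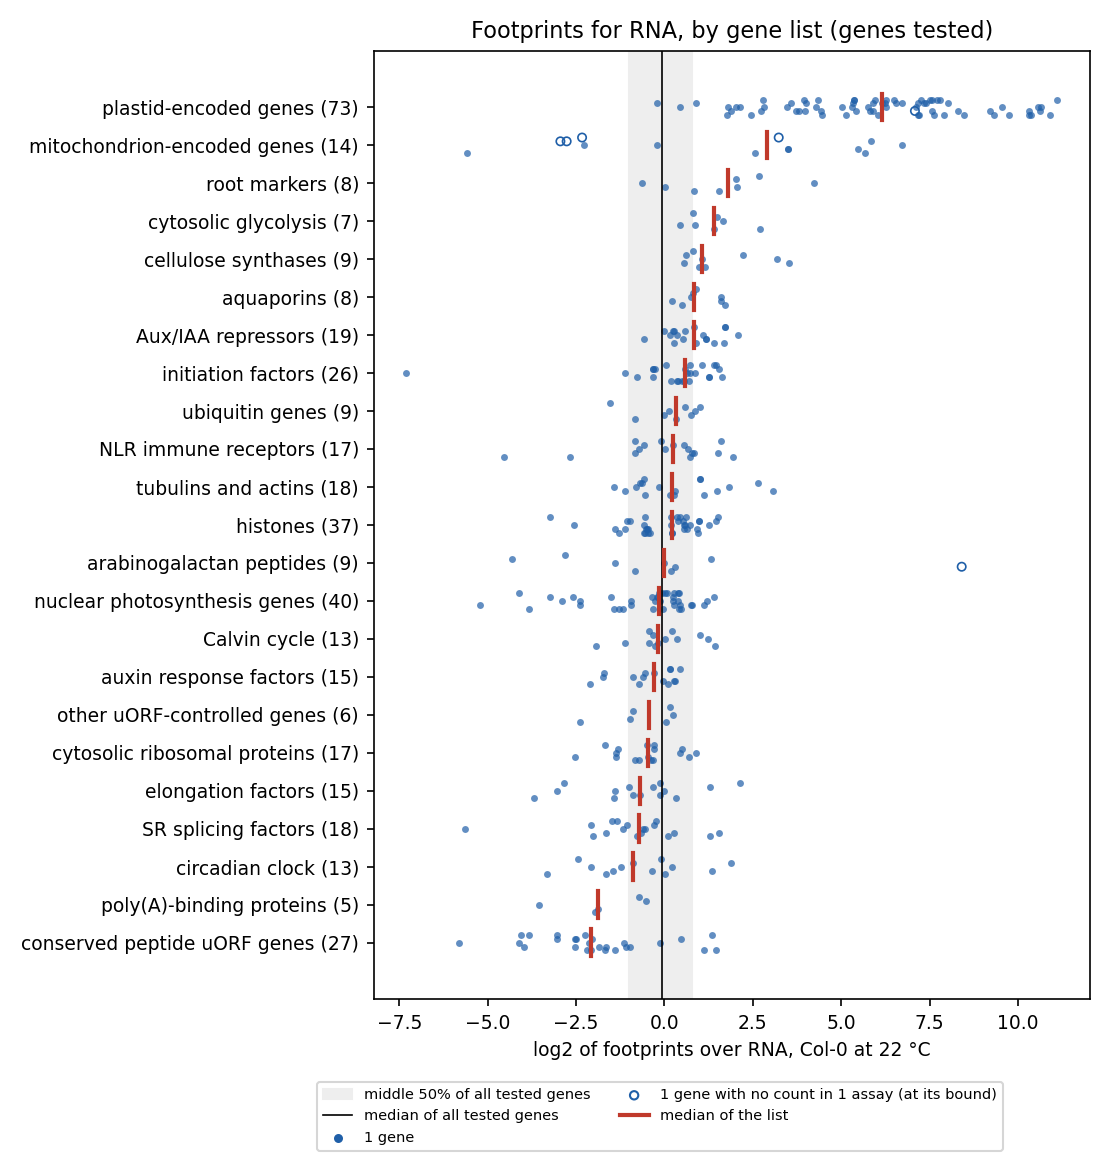
Log2 ratio of footprints over RNA in Col-0 at 22 °C for the tested genes of each list, with the number tested in brackets, 1 point per gene, and the list's median as a red bar. The grey band is the middle of all tested genes (-1.0 to 0.78) and open points are genes with no count in one assay, drawn at their bound. Medians run from -2.09 for the conserved peptide uORF genes to 6.14 for plastid-encoded genes.

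The enzymes of cytosolic glycolysis had high ratios. This pathway turns hexose phosphates into pyruvate. All 7 tested genes were called higher, with a median ratio of 1.39, and the same 7 of 7 were called in fust1. FBA8, a cytosolic aldolase, had 2088 and 2226 CPM of footprints and 347 and 314 CPM of RNA (2.71 ± 0.18, adjusted p = 1.85e-08). The enolase LOS2 had 1219 and 1356 CPM of footprints and 425.5 and 388 CPM of RNA (1.66 ± 0.17, adjusted p = 9.11e-07). Footprints exceeded RNA in every library of both genes. The smallest ratio of the list was that of another aldolase, FBA6, at 0.44 ± 0.14.

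Among genes with at least 100 CPM of RNA, the 5 largest ratios also belonged to enzymes and an electron carrier of primary metabolism. NDPK3, a nucleoside diphosphate kinase, had 738 and 808.5 CPM of footprints and 104 and 109 CPM of RNA (2.86 ± 0.16, adjusted p = 4.87e-09). MS2, a methionine synthase, had 1434 and 1473 CPM of footprints and 229 and 202 CPM of RNA (2.75 ± 0.20). PPC1, a phosphoenolpyruvate carboxylase, had 819 and 896 CPM of footprints and 134 and 128 CPM of RNA (2.71 ± 0.18). The others were FBA8, given above, and the ferredoxin FD1, at 2.7 ± 0.18. That no footprint library of these 5 genes reached down to an RNA library was a condition of their choice.

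Of 9 cellulose synthase genes, 8 were called higher and 0 lower, with a median of 1.05. IRX3 (CESA7), a subunit of the complex that builds secondary walls, had 50.1 and 55.5 CPM of footprints and 4.49 and 4.59 CPM of RNA (3.53 ± 0.18, adjusted p = 2.51e-09). The other secondary-wall subunits, IRX1 (3.17 ± 0.43) and CESA4 (2.21 ± 0.17), came next, above every primary-wall subunit. CESA1, of the primary wall, was at 1.14 ± 0.16, and CESA9 was not called (0.61 ± 0.55, adjusted p = 0.344). Of 8 aquaporin genes, water channels of the plasma membrane and the vacuole, 7 were called higher and 0 lower (median 0.85), led by the vacuolar GAMMA-TIP with 1284 and 1252 CPM of footprints and 413 and 362 CPM of RNA (1.71 ± 0.16).

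Xyloglucan transferases, which cut and rejoin wall polymers, had 20 of 25 tested members called higher and 1 lower, with a median of 1.71. XTH13 was highest among those with at least 10 CPM in one assay, with 17.4 and 15.2 CPM of footprints and 1.17 and 0.494 CPM of RNA (4.34 ± 0.50, adjusted p = 8.32e-06), and XTH32 was the member called lower (-0.74 ± 0.18). These 2 genes, and the members named below of families gathered by gene symbol, were picked after their values were seen. Cytochrome P450 genes had 77 of 161 higher and 24 lower (median 1.01), glutathione transferases 25 of 42 higher and 3 lower (median 0.81) and calcium-dependent protein kinases 17 of 26 higher and 2 lower (median 0.81).

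Root genes were among the high ratios, and in a bulk seedling fewer cells of a type and less RNA per cell cannot be told apart. Of 8 root markers, 4 were called higher and 1 lower, with a median of 1.79, and without Ribo-seq replicate 2 of Col-0 2 were called higher. SHV2 (COBL9), a protein of growing root hairs, had 23.7 and 21.4 CPM of footprints and 1.27 and 1.13 CPM of RNA (4.23 ± 0.28, adjusted p = 2.38e-08). The endodermal regulator SCR was called lower (-0.64 ± 0.15, adjusted p = 0.00208), and the endodermal partner SHR was not called (0.03 ± 0.24). EXPA18, a root hair expansin called higher at 2.67 ± 0.71, had 12 and 15.5 CPM of footprints and 0.780 and 3.32 CPM of RNA, and was not called without Ribo-seq replicate 2 of Col-0 (adjusted p = 0.0703). Whether the tissue taken for the 2 assays held the same share of root was not tested.

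Aux/IAA proteins are short-lived repressors that auxin removes, and 10 of 19 of their genes were called higher and 1 lower, with a median of 0.85. AXR3 (IAA17) had 152 and 130 CPM of footprints and 32.5 and 34.6 CPM of RNA (2.07 ± 0.15, adjusted p = 4.48e-08), and IAA8 was the one called lower (-0.58 ± 0.14). Of the 15 auxin response factor genes, the DNA-binding partners of these repressors, 6 were called lower and 0 higher, with a median of -0.29, a share of lower genes near the 32.4% of all genes. Without either RNA-seq library of fust1, 1 was called higher. The Aux/IAA and auxin response factor genes were not tested against each other. ARF11 was lowest, with 6.68 and 4.74 CPM of footprints and 23.7 and 26.3 CPM of RNA (-2.12 ± 0.24, adjusted p = 3.98e-06). ARF8 (-1.74 ± 0.16) and ARF4 (-1.70 ± 0.17) followed.

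**Figure D3:**
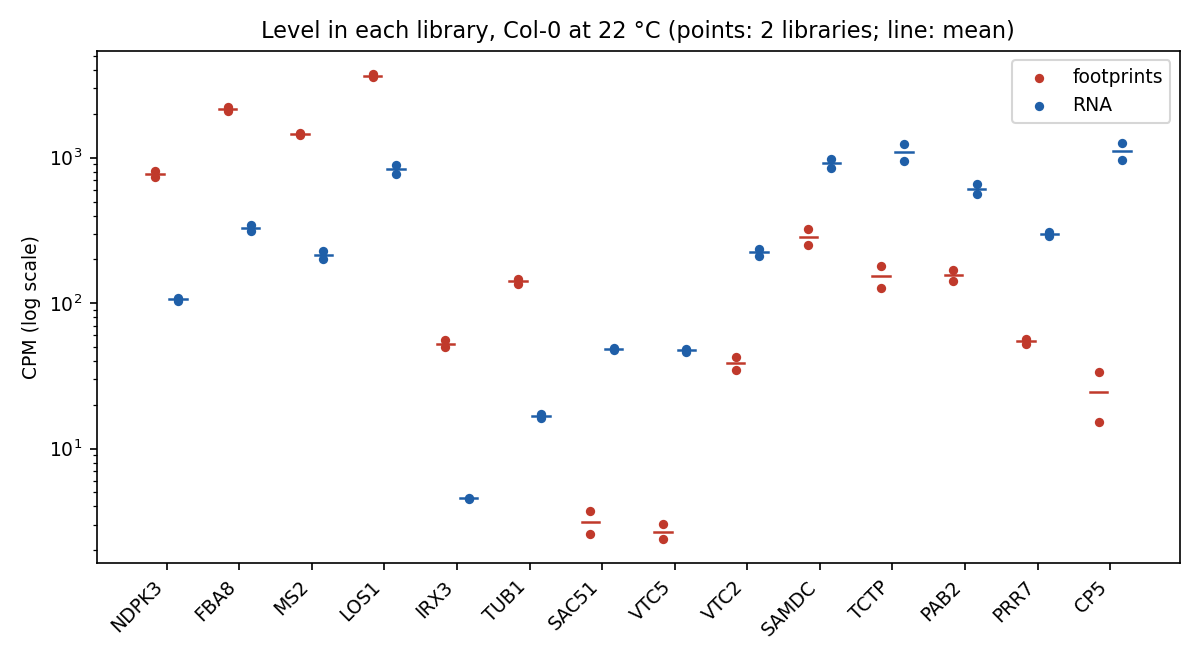
CPM in each of the 2 Ribo-seq libraries (red, left) and 2 RNA-seq libraries (blue, right) of Col-0 at 22 °C for 14 genes on a log axis, with the mean as a line. The assays do not overlap in any of the 14 genes, which was a condition of choice for some of them. Footprints are above RNA in the 6 genes from NDPK3 to TUB1 and below it in the 8 from SAC51 to CP5.

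TCP factors, regulators of leaf and flower growth, had 10 of 13 tested members lower and 0 higher, with a median of -1.68. TCP3 had 2.00 and 1.24 CPM of footprints and 56.8 and 56.5 CPM of RNA (-5.09 ± 0.24, adjusted p = 1.02e-09), and TCP4 had 3.0 and 3.20 CPM of footprints and 66.3 and 55.7 CPM of RNA (-4.30 ± 0.20). Both are targets of a microRNA, and in both the assays were more than an order of magnitude apart. The homeobox genes had 15 of 39 lower and 4 higher (median -0.54), the MYB genes 21 of 78 lower and 11 higher (median -0.47) and the SPL genes 6 of 14 lower and 2 higher (median -0.72), where 32.4% of all genes were lower and 28.1% higher. The share of MYB genes called lower was under that of all genes, and the share of homeobox genes was near it.

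Other families gathered by symbol were mixed. Families with more genes higher than lower were NAC factors (15 and 3 of 57), expansins (7 and 2 of 19), UDP-glycosyltransferases (18 and 9 of 49), ABC transporters (39 and 19 of 98) and RALF peptides (3 and 1 of 9). Those with more genes lower were WRKY factors (16, against 10 higher of 54), AP2/ERF factors (10 and 5 of 35), SAUR genes (5 and 1 of 15), receptor-like proteins (16 and 7 of 43) and organelle RNA editing factors (13 and 5 of 37). Of all genes 28.1% were higher and 32.4% lower. The shares of NAC factors called higher and called lower were both under these. So were the shares of WRKY and AP2/ERF factors called lower, while those of SAUR genes and editing factors were near 32.4%. With plain library totals NAC factors had 10 higher and 6 lower and ABC transporters 30 higher and 29 lower. NAC factors had 9 higher without RNA-seq replicate 1 of Col-0, and 7 lower with only the 4 Col-0 libraries in the fit. Expansins had 11 higher without either RNA-seq library of fust1. The SAUR genes called lower numbered 3 without RNA-seq replicate 1 of Col-0, 2 without RNA-seq replicate 2, 1 without Ribo-seq replicate 2, and 2 with all 16 libraries, so their excess rested on single libraries. Receptor-like proteins had 9 lower with the filter passed in each assay. MAP kinases and the kinases of them had 6 higher and 6 lower of 23, and galacturonosyltransferases 3 and 3 of 12. The sign of the median turned under another scaling or filter for NAC, WRKY and AP2/ERF factors, RALF peptides and MAP kinases. NLR immune receptors, intracellular sensors of pathogen proteins, had 8 of 17 higher and 6 lower, and with plain library totals 6 higher and 6 lower. Without Ribo-seq replicate 2 of Col-0, 3 were lower. They ranged from AT1G10920 (LOV1), with 4 and 3 footprint counts against 68 and 125 RNA counts, and SNC1 (-2.66 ± 0.24) to RPM1 (1.94 ± 0.21). Of 9 tested arabinogalactan peptides, 2 were higher and 3 lower, among them AGP16 with 11.8 and 11.3 CPM of footprints and 85.3 and 77.5 CPM of RNA (-2.81 ± 0.19).

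Clock genes, which set the daily rhythm, had 7 of 13 members called lower and 2 higher, with a median of -0.88. PRR7, a repressor of the morning loop, had 56.9 and 52.3 CPM of footprints and 288 and 308 CPM of RNA (-2.45 ± 0.15, adjusted p = 1.31e-08). TOC1, of the evening loop, stood at -2.07 ± 0.18, and the morning factors LHY and CCA1 at -3.33 ± 0.47 and -1.45 ± 0.21. GI had 336 and 317 CPM of footprints and 139 and 118.5 CPM of RNA (1.34 ± 0.18, adjusted p = 1.5e-05), and ELF4 was at 1.88 ± 0.21. The time of day at harvest is not given in the sources used here.

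SR splicing factors, which guide exon choice and regulate the splicing of their own transcripts, had 12 of 18 genes lower and 2 higher, with a median of -0.72. SR34b had 0.417 and 0.206 CPM of footprints and 13.9 and 19.1 CPM of RNA (-5.64 ± 0.43, adjusted p = 6.85e-08). SR34, its close relative, stood at -2.02 ± 0.16. The 2 genes called higher were the pair RSZ22a (1.55 ± 0.15) and RSZ22 (1.28 ± 0.16). Counts per gene do not separate spliced from unspliced transcripts.

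The translation apparatus held both ends of the scale. Of 26 tested initiation factor genes, 17 were called higher and 3 lower, with a median of 0.58; with plain library totals 10 were higher and 7 lower. EIF4A-2, an RNA helicase of the cap-binding complex, had 269 and 269 CPM of footprints and 93.9 and 80.7 CPM of RNA (1.62 ± 0.15, adjusted p = 3.91e-07). The scaffold gene EIF4G was at 1.07 ± 0.17 and the eIF3 subunit gene EIF3C at 1.26 ± 0.15. TRIP-1, another eIF3 subunit gene, was lower at -1.12 ± 0.16. EIF4A1 was at the edge of the call (0.39 ± 0.16, adjusted p = 0.0476) and not called with plain library totals (adjusted p = 0.569). AT1G76720 had 1 and 0 footprint counts against 8.78 and 9.11 CPM of RNA, a ratio of 0.00514 with a 95% counting interval of 0.00013 to 0.0289.

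Elongation factors lay on both sides. LOS1, the factor eEF2 that moves the ribosome along, had 3582 and 3764 CPM of footprints and 897 and 775 CPM of RNA (2.14 ± 0.18, adjusted p = 1.81e-07). TCTP, the translationally controlled tumour protein, listed beside them, had 179 and 127 CPM of footprints and 1234 and 953 CPM of RNA (-2.84 ± 0.21, adjusted p = 5.47e-08). Footprints lay above RNA in every library for LOS1 and below it for TCTP. Of the 15 genes on the list, 2 were called higher and 7 lower, with a median of -0.68. AT1G07920 (-3.69 ± 0.20) and AT1G07940 (-3.03 ± 0.18) were lowest, but they were 2 of 4 listed near-identical copies whose summed counts gave -0.58 ± 0.17 (adjusted p = 0.00878), while the other copies, AT1G07930 (-0.13 ± 0.14) and AT5G60390 (-0.33 ± 0.17), were not called.

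Poly(A)-binding proteins, known in animals to hold down the translation of their own mRNA, were low. Of 5 tested genes, 4 were called lower and 0 higher, with a median of -1.87. PAB2 had 169 and 143 CPM of footprints and 660 and 562 CPM of RNA (-1.97 ± 0.16, adjusted p = 1.45e-07). PAB4 followed with 55.0 and 49.3 CPM of footprints and 196 and 184 CPM of RNA (-1.87 ± 0.16), and PAB8 with 101 and 102 CPM of footprints and 173 and 162 CPM of RNA (-0.72 ± 0.14). In all 3 genes both footprint values were under both RNA values. The other gene called lower, PAB6, had the lowest ratio of the list (-3.56 ± 0.85, adjusted p = 0.00221). It rested on few counts, with 0 and 3 footprint counts and 19 and 24 RNA counts.

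Cytosolic ribosomal protein genes were lower for 10 of the 17 on the list and higher for 4, with a median of -0.47, and higher for 2 with plain library totals or without replicate 2 of either Col-0 assay. AT3G09200 was lowest, with 87.2 and 89.3 CPM of footprints and 550 and 465 CPM of RNA (-2.52 ± 0.17, adjusted p = 2.96e-08). STV1, a ribosomal protein whose loss affects uORF-bearing mRNAs, was at -1.38 ± 0.16. The paralogues RPS5A (-1.31 ± 0.16) and RPS5B (0.89 ± 0.17) were called in opposite directions. In fust1 the list's median was 0.02, with 5 lower and 4 higher.

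Photosynthesis genes of the nucleus took 11.4 and 10.4% of footprint counts and 20.5 and 18.9% of RNA counts. Of 40 genes, 14 were called lower and 5 higher, with a median of -0.15. The median was 0.25 over the 29 genes left when near-identical copies were taken off the list. The sums of those copies are not part of it and are given below. The count of higher genes was 11 with DESeq2, with the replicate block, with only the 4 Col-0 libraries in the fit and without either RNA-seq library of fust1. The count of lower genes was 22 with plain library totals, and 5 among the 29 genes left without near-identical copies. Photosystem I genes lay on both sides. LHCA3, an antenna protein, had 12610 and 11310 CPM of footprints and 5069 and 4028 CPM of RNA (1.39 ± 0.23, adjusted p = 0.00011), followed by PSAH2 (1.19 ± 0.17) and PSAG (1.13 ± 0.18). PSAF (-1.42 ± 0.20, adjusted p = 2.02e-05) and the antenna gene LHCA2 (-0.94 ± 0.20, adjusted p = 0.000964) were called lower, and LHCA4, PSAK, PSAL and PSAN, between -0.32 and -0.08, were not called. The photosystem II antenna genes LHCB3, LHCB5 and LHCB6 lay between 0.41 and 0.47 and were not called.

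The low photosynthesis genes were mostly copies of 2 families. The 5 copies of LHCB1, the main antenna protein, ranged from -4.12 (CAB2) to -2.40 (CAB1), and their summed counts gave 8143 and 7801 CPM of footprints and 63800 and 50470 CPM of RNA, a ratio of -2.84 ± 0.25 (adjusted p = 2.86e-07). The 4 small subunit genes of Rubisco ranged from -5.23 (RBCS1B) to -1.17 (RBCS1A), and their sum gave 11030 and 7818 CPM of footprints and 31630 and 28540 CPM of RNA (-1.67 ± 0.24, adjusted p = 2.58e-05). In both families the sum stayed lower in footprints, with no overlap of the libraries. The 2 copies of LHCB2 summed to 0.02 ± 0.22, which was not called. How reads that match several copies were counted in each assay is not given in the sources used here, so the split among copies is uncertain. If such reads were left out, the sums lack them as well. Whether the assays differ in that handling, or in the reads lost by it, was not tested.

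Of 13 Calvin cycle genes, 3 were higher and 3 lower. With plain library totals 3 were higher and 7 lower, and 5 were lower with only the 4 Col-0 libraries or without either RNA-seq library of fust1. HCEF1, the plastid fructose bisphosphatase, had 1566 and 1691 CPM of footprints and 605 and 615 CPM of RNA (1.42 ± 0.20, adjusted p = 2.63e-05), and the ribose-5-phosphate isomerase gene EMB3119 was at 1.24 ± 0.15. RPE, the ribulose-phosphate epimerase, had 221 and 155 CPM of footprints and 714 and 718 CPM of RNA (-1.93 ± 0.19, adjusted p = 7.73e-07), and the plastid triose-phosphate isomerase gene TIM was at -1.12 ± 0.15. RCA, the Rubisco activase, was not called (0.21 ± 0.23, adjusted p = 0.424).

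Cytoskeleton and chromatin genes split within their lists. Summed over 9 copies, beta tubulin was higher in footprints (0.88 ± 0.17, adjusted p = 0.000467), and summed over 6 copies alpha tubulin was lower (-0.77 ± 0.17, adjusted p = 0.000993). TUB1 had 147 and 135.5 CPM of footprints and 17.2 and 16.3 CPM of RNA (3.08 ± 0.16, adjusted p = 3.23e-09), and TUA3 was at -1.43 ± 0.15. Of 37 histone genes, 14 were called higher and 14 lower, and with plain library totals 9 higher and 15 lower. Ubiquitin genes had 4 of 9 higher and 2 lower. With 5 near-identical copies taken off the list, 0 of the 4 left were higher and 2 lower. The summed counts of those 5 copies were called higher (0.65 ± 0.19, adjusted p = 0.00887). The single copies of a tubulin or histone protein share sequence, and the same limits on their split and on their sums apply.

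Plastid-encoded genes took 4.88 and 5.35% of footprint counts and 0.0303 and 0.0246% of RNA counts, and 70 of 73 tested genes were called higher and 0 lower, with a median of 6.14. Many of the 73 passed the filter through their footprints alone. Among the 38 that passed it in each assay, 36 were called higher and 0 lower, with a median of 5.62. ATCG00490 had 12490 and 13470 CPM of footprints and 6.63 and 5.23 CPM of RNA (11.11 ± 0.34, adjusted p = 5.25e-11), and ATCG00020 had 15520 and 12550 CPM of footprints and 14.3 and 8.12 CPM of RNA (10.31 ± 0.41). Their RNA is counted after selection for poly(A), so these ratios set plastid footprints against the polyadenylated part of plastid RNA. The 3 genes not called were ATCG00050 (2.14 ± 0.95, adjusted p = 0.0645), ATCG01020 (0.45 ± 0.33) and ATCG00190 (-0.21 ± 0.33), named after their values were seen. Of 120 mitochondrial genes 14 passed the filter, nearly all through 1 assay only. With the filter passed in each assay 1 was left, which was not called, so no direction is given for them.

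At the extremes, a gene had counts in one assay and none in the other. Among nuclear genes with at least 10 CPM in the higher assay, 6 had footprints and no RNA count. AT3G63052 had 1524 and 1337 footprint counts and no RNA count, at least 1070-fold higher, taking 3 counts over the group as the floor, which covers counting error only. AIR1, a gene induced by auxin in root cultures, had 714 and 427 footprint counts (at least 428-fold), AT1G14450 had 538 and 483 (at least 383-fold), AGP21, an arabinogalactan peptide, had 489 and 414 (at least 339-fold), AT4G00165 had 324 and 275 (at least 225-fold) and AGP4 had 279 and 183 (at least 173-fold). In the RefSeq annotation 5 of the 6 overlap another protein-coding gene, against 28.5% of all tested nuclear genes, and the part of this overlap in the missing RNA counts was not tested.

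In the opposite direction, 382 tested genes had RNA in both libraries and no footprint, 29 of them with at least 10 CPM of RNA. AT2G11225 had 1312 and 2585 RNA counts and no footprint count, at least 1150-fold lower. AT5G49440 (at least 526-fold), AT3G61010 (at least 303-fold), AT4G00040 (at least 231-fold) and AT5G03545 (at least 205-fold) came next. How many of the 29 genes encode a protein was not counted, and a gene without a protein would hold no footprints of translation. Of the 29 genes, 2 had a symbol in the name table, a share of 6.9% against 44.3% of all tested nuclear genes. Of these 29, 6 overlap another protein-coding gene (20.7%, against 28.5% of all tested nuclear genes), and 15 overlap another annotated gene of any kind (51.7%, against 32%).

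Among genes with at least 100 CPM of RNA and some footprints, CP5 was lowest, with 33.6 and 15.3 CPM of footprints and 1259 and 966.5 CPM of RNA (-5.50 ± 0.40, adjusted p = 8.17e-06). RBCS1B, one of the copies above, came next, followed by AT5G24620 (-5.21 ± 0.27) and AT2G23090 (-4.90 ± 0.18). AT2G23090 had 6.76 and 5.98 CPM of footprints and 200.1 and 181.5 CPM of RNA. No footprint library of these genes came within an order of magnitude of an RNA library.

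**Figure D4:**
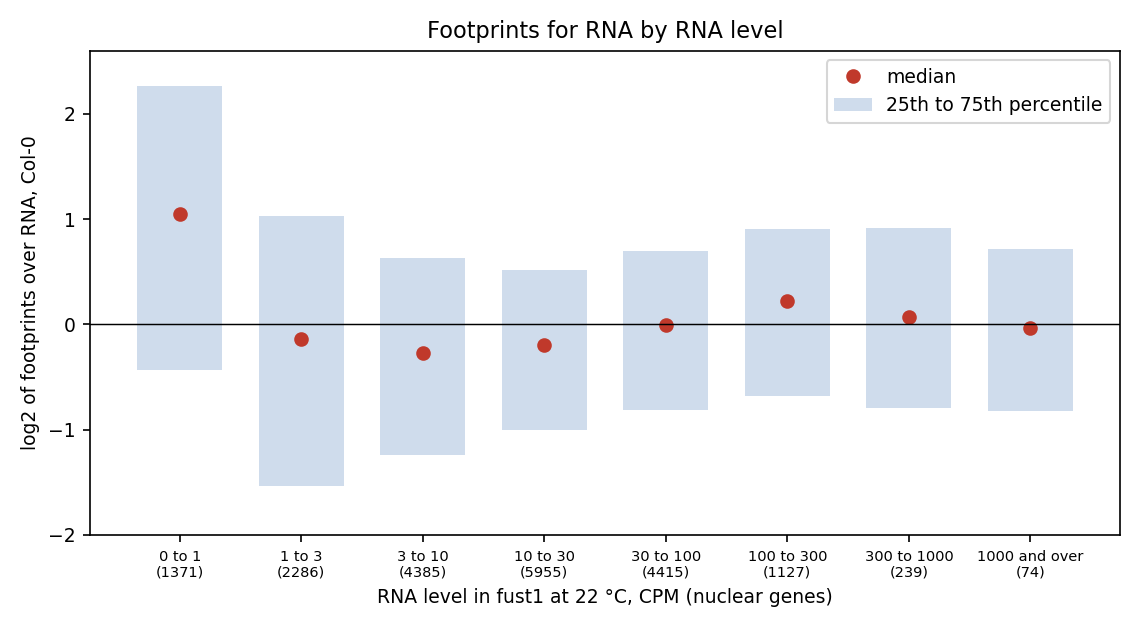
Ratio of footprints over RNA in Col-0 for nuclear genes grouped by their RNA level in fust1 at 22 °C, libraries that the ratio does not use; points are medians, bars the 25th to 75th percentile, numbers in brackets the genes. Medians lie between -0.27 and 0.22 in every group from 1 CPM up, and at 1.05 under 1 CPM.

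Median ratios were near 0 at every RNA level from 1 CPM up. Nuclear genes were grouped by their RNA level in fust1, which the Col-0 ratio does not use. Genes of 3 to 10 CPM had a median ratio of -0.27, genes of 30 to 100 CPM of 0.00 and genes of 100 to 300 CPM of 0.22. Above 1000 CPM the 74 genes had a median of -0.03, with 25.7% called higher and 27% lower. The 1371 genes under 1 CPM stood apart with a median of 1.05, and with so little RNA in fust1 many passed the filter through their footprints, so that median is partly set by the filter.

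The mutant gave much the same ratios. The log2 ratios in fust1 and in Col-0, from libraries that are not shared, had a Pearson correlation of 0.922 over the 17150 genes. In fust1 the test called 5534 genes higher in footprints and 6577 lower. Of the 3521 genes at least 2-fold higher in Col-0, 3137 were called higher in fust1, 2 lower and 382 were not called. Of the 4571 at least 2-fold lower, 4146 were called lower in fust1, 0 higher and 425 were not called.

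The difference of the ratio, fust1 minus Col-0, was tested in the same fit. It was called for 11 genes (0.0552%), of which 10 (0.0502%) were lower in fust1 and 1 (0.00502%) higher, all at least 2-fold. WRKY33, a regulator of defence against fungi, had 19.2 and 20.9 CPM of footprints and 145 and 151 CPM of RNA in fust1, against 17.8 and 18.7 CPM of footprints and 32.5 and 38.4 CPM of RNA in Col-0 (difference -1.92 ± 0.21, adjusted p = 0.00237). Its RNA was several-fold higher in both fust1 libraries, while its footprints there lay only just above those of Col-0. AT5G11330 had 3.62 and 2.76 CPM of footprints and 24.1 and 21.3 CPM of RNA in fust1, against 46.5 and 51.8 CPM of footprints and 38.0 and 54.9 CPM of RNA in Col-0 (-2.91 ± 0.30, adjusted p = 0.00161). Both its levels were lower in fust1, the footprints more so.

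The count of differing genes rested on single libraries. It was 96 without RNA-seq replicate 1 of fust1 and 1563 without RNA-seq replicate 2, and between 1 and 4 with any other library left out. The RNA-seq replicates of fust1 were further apart than those of any other group at 22 °C, with a chi-square per degree of freedom of 19 against 7.57 for RNA of Col-0, 10.6 for footprints of fust1 and 7.49 for footprints of Col-0. DESeq2 called 37 genes.

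**Figure D5:**
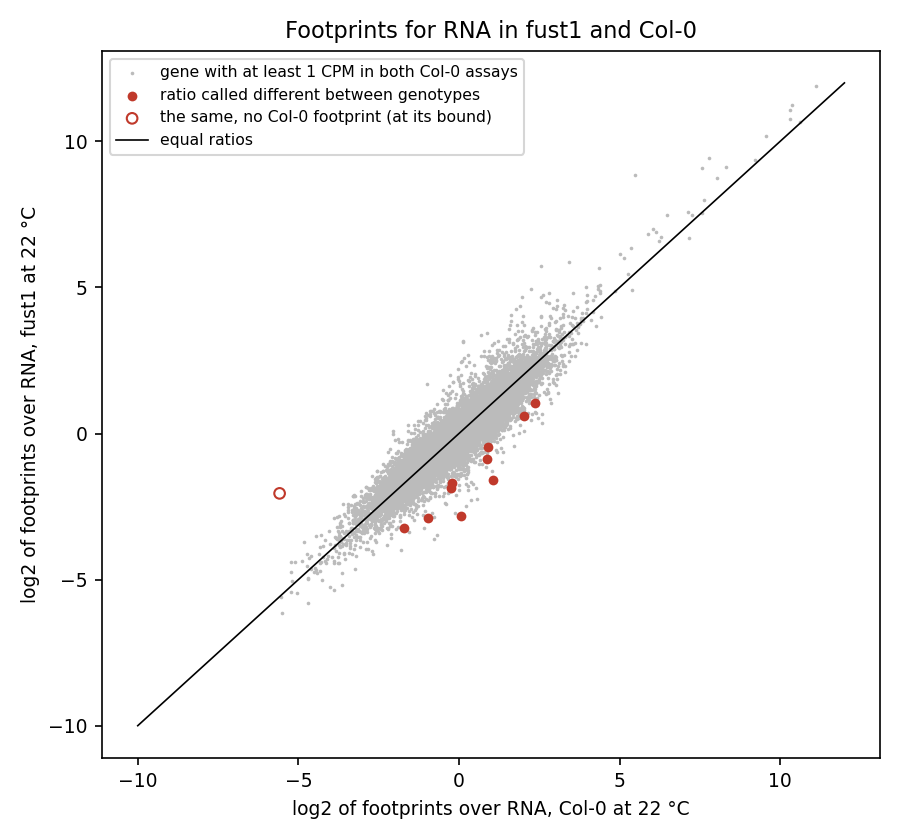
Log2 ratio of footprints over RNA in fust1 (vertical) against Col-0 (horizontal) at 22 °C, for genes with at least 1 CPM in both Col-0 assays. The points follow the line of equal ratios (Pearson 0.922 over the nuclear genes among them), and the 11 genes called different are red, the one with no Col-0 footprint drawn open at its bound.

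The lists were also set beside Col-0 at 37 °C. In a fit of all 16 libraries, footprints were called higher for 25.8% of genes and lower for 34.6% in Col-0 at 37 °C, and for 24.4% and 27.3% at 22 °C. The median of all genes was -0.32 at 37 °C and -0.06 at 22 °C. Cytosolic glycolysis had 6 of 7 genes higher and 1 lower at 37 °C (median 1.42), against 7 higher and 0 lower at 22 °C (median 1.4). Xyloglucan transferases had 15 of 26 higher and 4 lower at 37 °C (median 1.59), against 17 higher and 1 lower at 22 °C (median 1.67). The conserved peptide uORF genes had 19 of 27 lower and 2 higher at 37 °C (median -3.20), against 20 lower and 3 higher at 22 °C (median -2.08). Cellulose synthases had 0 of 9 genes higher and 8 lower at 37 °C (median -3.11), against 8 higher and 0 lower at 22 °C (median 1.07). No test of a list between the temperatures was made.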

How the data were processed

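Sources used here were 2 deposited tables of whole-number read counts per gene, one per assay, without normalization. Per the submitters' processing notes, fastp 0.19.7, STAR 2.7.3a, featureCounts 1.6.2, Bowtie 1.0.1 and the TAIR10 genome were used. The counted feature, strand, footprint lengths and the treatment of reads with several matches are not given in the sources used here. If reads were counted over whole exons, the ratio of a gene would also carry its share of untranslated sequence, and no lengths were used to correct for it.

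The 8 libraries at 22 °C (4 groups of 2) were fitted together in edgeR 4.0.16 (R 4.3.3): filterByExpr with a minimum count of 10, TMM scaling and the robust quasi-likelihood test, with 4 residual degrees of freedom. The contrasts were footprints minus RNA in Col-0, the same in fust1, and their difference. Standard errors are the absolute log2 value over the square root of F. P-values were adjusted over all 19939 genes (Benjamini-Hochberg). Replicate pairs all differed by more than sampling noise, so each counted as its own sample. Gene names, overlaps and neighbours came from a RefSeq name table (assembly TAIR10.1), in which 10361 genes had a symbol.

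Members, 22 role lists (344 genes) and 20 families matched by symbol were chosen with earlier results of these data known. Named genes were the 10 highest and 10 lowest called ratios with at least 10 CPM in the higher assay and no overlap of libraries, the 5 highest and 5 lowest at 100 CPM of RNA or more, up to 5 genotype differences per direction, the leading members of each list, and a set of well-known genes. Other names in the text were picked after their values were seen. Summing near-identical copies was an alternative added after seeing the data. In it the copies left their lists, and their sums were not counted as list members.

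On simulated data from 19521 genes, 59% of 2-fold and 94% of 4-fold differences between assays in Col-0 were recovered, and 7.83% of calls were unchanged genes. For the genotype difference 15% and 88% were recovered, with 13.4% unchanged genes among the calls. In each comparison 100 genes, none of low level, were given each fold difference, and all other genes none. In the real data 60.5% of genes were called between the assays of Col-0. Recovery and the share of unchanged genes depend on how many genes differ, so the simulated rates need not hold for that contrast. Spearman correlations used CPM, and the Pearson correlation between genotypes used the fitted log2 ratios. Distances and deviations between replicates used log2 of CPM with a pseudocount of 0.5. Alternatives used DESeq2 1.42.0, other scalings, filters and sets of libraries.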

Additional observations from a re-analysis of the deposited data

Results flagged for a closer look

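The ratio of footprints over RNA was called different between fust1 and Col-0 at 22 °C for 11 genes, by a test of the difference itself (fust1 minus Col-0, log2, edgeR, quasi-likelihood test, Benjamini-Hochberg adjusted p). Those lower in fust1 were AT5G11330 (-2.91, adjusted p = 0.00161), AT5G41750 (-2.67, adjusted p = 0.0247), the defence regulator WRKY33 (-1.92, adjusted p = 0.00237), AT1G02660 (-1.74, adjusted p = 0.0332), EDA39 (-1.62, adjusted p = 0.0332), AT5G04810 (-1.50, adjusted p = 0.0247), the zinc finger gene SZF1 (-1.48, adjusted p = 0.0408), the receptor-like kinase gene CRK10 (-1.42, adjusted p = 0.0445), the jasmonate synthesis gene OPCL1 (-1.38, adjusted p = 0.0408) and HIR2 (-1.35, adjusted p = 0.0408). AT5G63040 was higher in fust1, with 4.58 and 2.76 CPM of footprints and 16.3 and 14 CPM of RNA in fust1, against no footprint count and 6.53 and 6.71 CPM of RNA in Col-0. Its fitted difference of 7.23 rests on a group at 0 and is no bound.

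In 8 of the 10 lower genes the RNA was higher in both fust1 libraries than in both Col-0 libraries. SZF1 had 51.0 and 64.7 CPM of footprints and 195 and 182 CPM of RNA in fust1, against 51.5 and 41.3 CPM of footprints and 50.9 and 57.4 CPM of RNA in Col-0. For AT5G04810 the footprints were lower and the RNA overlapped, with 13 and 11.3 CPM of footprints and 121 and 105 CPM of RNA in fust1, against 35 and 32.3 CPM of footprints and 114 and 108 CPM of RNA in Col-0. AT5G41750, AT1G02660 and EDA39 were not called whichever single Col-0 library was left out (adjusted p between 0.143 and 0.27), nor was AT5G63040 (adjusted p between 0.197 and 0.36). WRKY33 was not called without RNA-seq replicate 1 (adjusted p = 0.0886) or Ribo-seq replicate 2 of Col-0 (adjusted p = 0.0527), or without Ribo-seq replicate 1 of fust1 (adjusted p = 0.0625). AT5G11330 kept its call whichever library was left out. SZF1, CRK10, OPCL1, HIR2 and AT5G04810 were not called without RNA-seq replicate 1 of Col-0, nor without Ribo-seq replicate 2 of Col-0.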

How the results depend on the processing

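In Col-0 the counts of genes higher and lower in footprints ranged from 4544 to 6311 and from 5294 to 7063 with 1 library left out. With plain library totals the split moved from 46.4% to 33.8% of calls higher, and 2338 genes, not 3521, were at least 2-fold higher. Over all alternatives 2085 values of single named genes kept their direction and their side of the threshold, 18 lost the call (of EXPA18, AG, EIF4A1 and HSP101), EDA39 gained it with library totals (-0.55, adjusted p = 0.0156) and 0 reversed.

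The count of genes that differ between genotypes was far less stable. Against 11 genes (10 lower, all at least 2-fold, and 1 higher), library totals gave 7 (6 lower, 6 at least 2-fold), and DESeq2 gave 37 (27 lower, 25 at least 2-fold, and 10 higher, 8 at least 2-fold). Without the filter on low counts there were 49 (42 lower, 40 at least 2-fold, and 7 higher, 7 at least 2-fold), and with all 16 libraries in the fit 1 (1 lower, 1 at least 2-fold, and 0 higher, 0 at least 2-fold). Leaving out 1 library gave 1 to 1563 genes, 1 to 679 lower (1 to 294 at least 2-fold) and 0 to 884 higher (0 to 576 at least 2-fold), with the highest counts without RNA-seq replicate 2 of fust1. Of the values of named differences 71 kept their call and 31 lost it. The cause was not tested.

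With the replicate number as a block, 5656 genes were higher and 6370 lower in Col-0, and 1 higher and 12 lower in fust1 than in Col-0. Same-numbered Ribo-seq and RNA-seq libraries deviated with a correlation of -0.012 in Col-0 and 0.217 in fust1, and with 2 pairs they share only a number.

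Ratios of near-identical copies, and of their sums, rest on how reads with several matches were treated.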
